A study of Mus musculus with 9 samples.

Results

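GFP+CD133+ cells of the dermal papilla were compared with the general dermal cell pool, which carried neither GFP nor CD133. The comparison rests on 6 of the 9 arrays of the series, 3 a side, and on 18193 genes, each read from 1 probe set. The cells came from dorsal skin of 3 mice at postnatal day 2, numbered 2, 4 and 5 in the labels, and were sorted by flow cytometry into gates of about 50000 cells. Gate R3 held GFP+CD133+ cells, labelled as papilla cells of guard, awl and auchene hairs. Gate R1 held GFP-CD133- cells of the same mice, labelled as dermal cells without papilla. Gate R2, GFP-CD133+ cells labelled as zigzag papilla, entered the fit for its estimate of the spread, and its levels are given where they place a gene. CD133 is the protein of Prom1. GFP is known from work on this sort as a reporter of Sox2, although the labels name no allele or strain. Each array measured the RNA of 1 mouse and 1 gate. The spread between arrays therefore holds that between animals together with that of sorting and measurement.

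The dermal papilla is a cluster of mesenchymal cells enclosed by the epithelium of the hair bulb. It signals to that epithelium through secreted Wnt, BMP and FGF proteins and their antagonists, and it receives signals such as hedgehog proteins in return. The surrounding dermis holds collagen-secreting fibroblasts beside vessels, nerves, immune cells, muscle and fat, and skin preparations can also carry epithelium. Levels are given as log2 expression values, on which 1 unit is a 2-fold step, and array values are listed for mice 2, 4 and 5 in that order. A gene was called when its adjusted p in limma's fit (Benjamini-Hochberg over all genes) was under 0.05. An alternative fit, named below as genes above the median gene, kept the 9096 genes of higher mean level. List members dimmer than that were not tested in it, so its list counts can drop without any lost call.

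Across probe sets, pairs of R1 arrays correlated at 0.981 to 0.982, pairs of R3 arrays at 0.977 to 0.985, and R1 with R3 arrays at 0.951 to 0.959. As a background guide, 44 probe sets of olfactory receptors were read on each array, and their 95th percentile was taken. It ranged from 5.14 to 5.46; a fold against a level this dim or dimmer is uncertain. The 3' minus 5' difference of the beta-actin control probe sets, which reflects RNA quality, came to 0.05 ± 0.01 in R1 and 0.15 ± 0.04 in R3 (log2, SD, n = 3) with no overlap between the groups (exact permutation p = 0.1, two-sided, the smallest that 3 against 3 arrays allow). For Gapdh it was 2.85 ± 0.19 in R1 and 2.84 ± 0.17 in R3 with overlap (exact permutation p = 1, two-sided). The part of RNA quality in the gene differences was not tested.

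Both genes behind the sort followed their gates, a check of the labels and not a result. Sox2, a transcription factor of stem and papilla cells, read 4.45, 4.31 and 3.81 in R1 and 10.62, 10.57 and 10.80 in R3. Its R1 arrays lay under the background guide. The difference was 6.48 (standard error 0.29, adjusted p = 3.53e-06). Prom1 read 7.82, 7.12 and 7.34 in R1 and 10.16, 10.53 and 10.26 in R3, a 7.42-fold difference. Sox2ot, a transcript that overlaps Sox2, read 3.34, 2.79 and 3.14 in R1, under the background guide, and 7.73, 6.92 and 8.25 in R3.

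In all, 3406 genes were called between R3 and R1, or 18.7% of those tested. Of these, 1438 (7.9% of all) were higher and 1968 (10.8%) lower in R3. The sign was the same in all 3 mice for 3399 of the called genes. At least 4-fold differences were seen in 152 higher and 247 lower genes, and at least 8-fold differences in 47 and 68. The arrays of the groups did not overlap for 34.4% of genes, higher in R3 for 15.5% and lower for 18.9%. Centring each array on its median gene turned the balance, to 1839 higher and 1570 lower, and moved the median difference of all genes from -0.01 to 0.08. Directions of small differences are therefore relative to the scaling. In bulk RNA, fewer cells of a type and less RNA per cell cannot be told apart.

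**Figure D1:**
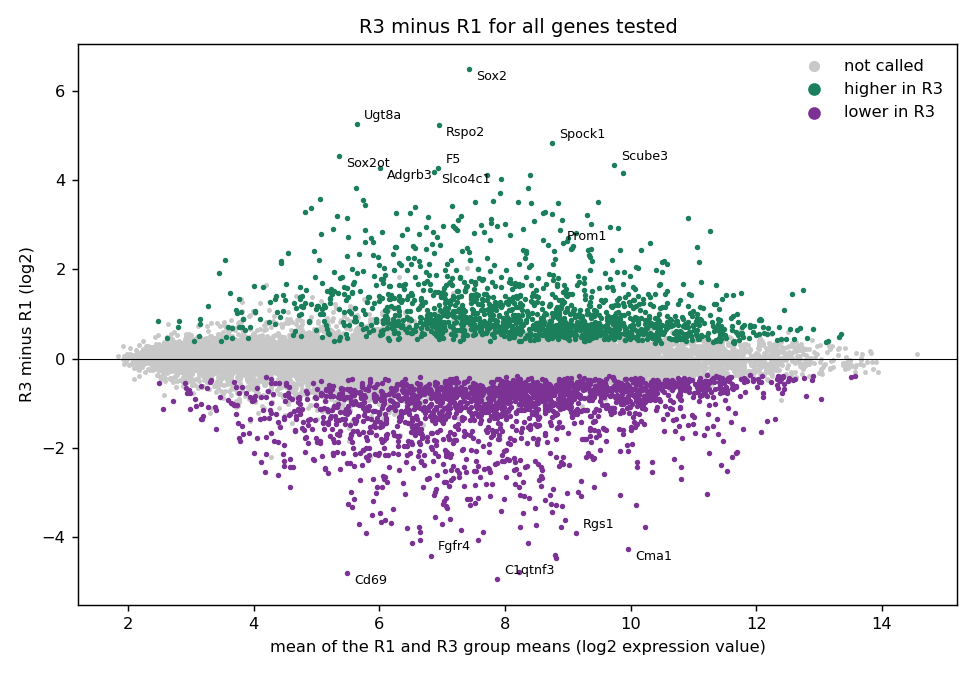
R3 minus R1 (log2) against the mean of the R1 and R3 group means (log2 expression value) for 18193 genes, 1 point a gene; called genes are green where higher and purple where lower in R3, and some of the genes with the largest differences are named. Among the genes named there, Sox2 lies highest at 6.48, and C1qtnf3 lowest at -4.94.

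Next to Sox2 and Sox2ot, the largest rises joined genes known from papilla and from myelin. Rspo2, a secreted R-spondin that raises Wnt signalling, read 4.88, 4.29 and 3.80 in R1 and 9.40, 9.81 and 9.48 in R3, with a mean of 6.20 in R2. The R1 arrays lay under the background guide, and the R3 arrays lay well above it. The difference was 5.24 (standard error 0.30, adjusted p = 6.89e-06), or 37.8-fold, and a second probe set of the gene was not called. Averaged over the probe sets of each gene, 27 of the 156 genes named here moved by more than 1.5 times in fold, and these 27 were still called; their averaged folds are given with them. That of Rspo2 was 6.75. Spock1, which encodes the proteoglycan testican, read 6.85, 5.36 and 6.78 in R1 and 11.31, 11.15 and 11.02 in R3, 28.5-fold higher. Scube3, a secreted signalling protein, read 7.97, 7.56 and 7.18 and 12.10, 11.99 and 11.62, 20.2-fold higher. The groups of both genes lay far apart, with no overlap. Slc1a1, a glutamate transporter, stood at 5.66 ± 0.32 in R1 and 9.76 ± 0.17 in R3 (SD, n = 3), 17.2-fold higher (10.5 averaged), with R2 at 9.60.

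Adgrb3, an adhesion receptor known from synapses, was 19.4-fold higher in R3, and the coagulation factor gene F5 19.3-fold. Slco4c1, an organic anion transporter, was 18-fold higher (9.94 averaged). In R1 the means of these 3 genes, 3.87, 4.81 and 4.78, lay under the background guide. Ugt8a, an enzyme of myelin galactolipid synthesis, read 3.51, 2.91 and 2.63 in R1 and 7.99, 8.32 and 8.51 in R3, 38.1-fold higher (20.7 averaged). Its R2 mean of 3.29 lay with R1, both under the background guide. Mbp, myelin basic protein, read 8.34, 6.87 and 8.18 in R1 and 11.84, 11.98 and 12.04 in R3, 17.8-fold higher (8.22 averaged). In R1 it lay above the background guide. Mal, a myelin proteolipid, was 17.2-fold higher (9.58 averaged and 11.3 without R1 replicate 4), and its R1 arrays ranged from 5.13 to 7.14.

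**Figure D2:**
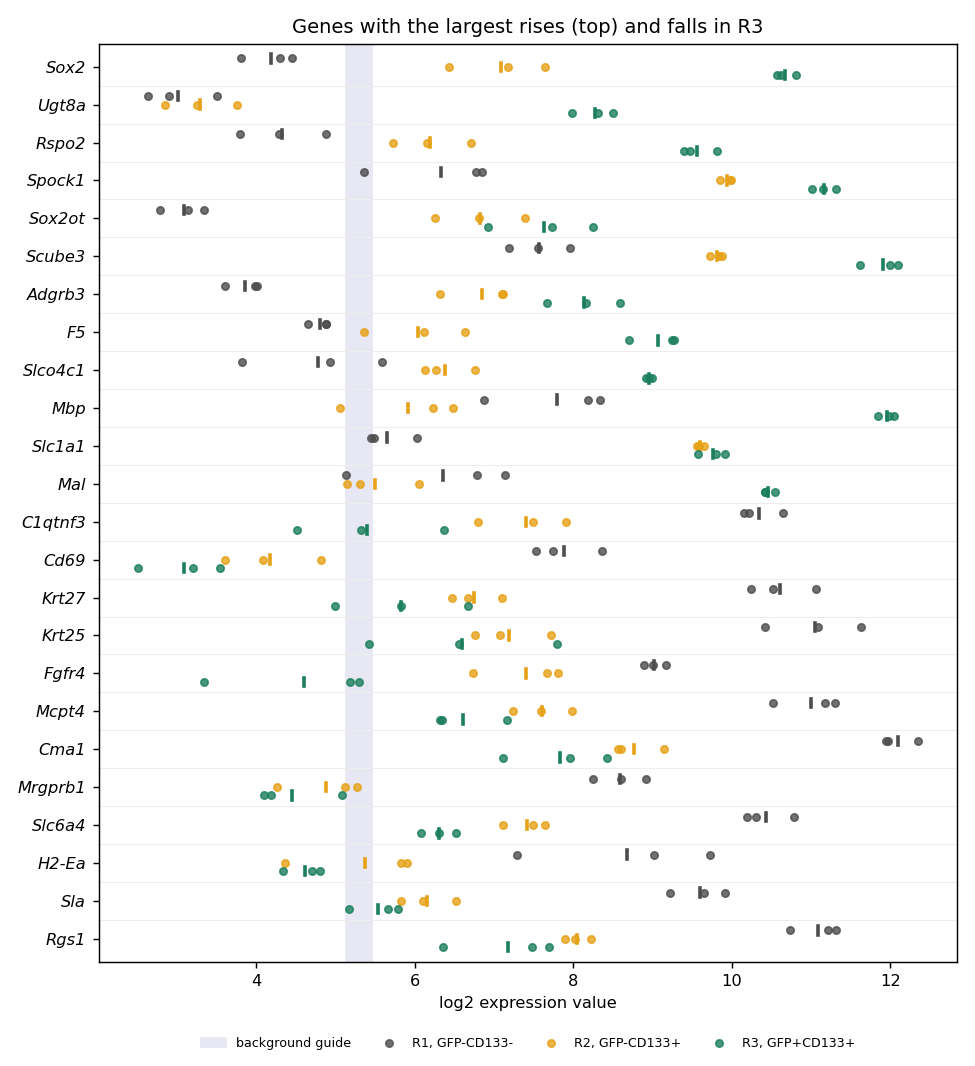
Log2 expression values of the 12 genes with the largest rises (top) and the 12 with the largest falls in R3 against R1, 1 point an array and a bar at each group mean, with the range of the background guide shaded. Clone-type, predicted and numbered symbols were skipped in the choice, and the sign had to be the same in all 3 mice. No R3 array overlaps an R1 array for these 24 genes, which were chosen by their differences on these arrays. Over all genes this held for 34.4%. R2 lies with R3 for Slc1a1 (9.60 against 9.76) and with R1 for Ugt8a (3.29 against 3.02).

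The 250 bases before the start are shown for 3 genes as the regulatory sequence next to these differences. Of the named genes with a RefSeq promoter entry (GRCm38.p6), these had the largest rises. The windows were searched on both strands for ACAAAG and ACAATG, the core bound by SOX proteins, and for ATCAAAG, bound by the Wnt effectors TCF and LEF. The search also covered TGGGAA, bound by the Notch effector RBPJ. Capitals mark matches. The windows are chr3:34649745-34649994 on the plus strand for Sox2, chr3:125938653-125938902 on the minus strand for Ugt8a and chr13:57908333-57908582 on the minus strand for Spock1.
Sox2: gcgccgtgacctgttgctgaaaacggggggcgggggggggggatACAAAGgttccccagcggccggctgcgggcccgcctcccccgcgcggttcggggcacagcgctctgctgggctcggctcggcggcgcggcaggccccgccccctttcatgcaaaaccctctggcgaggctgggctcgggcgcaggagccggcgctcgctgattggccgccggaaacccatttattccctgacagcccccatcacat
Ugt8a: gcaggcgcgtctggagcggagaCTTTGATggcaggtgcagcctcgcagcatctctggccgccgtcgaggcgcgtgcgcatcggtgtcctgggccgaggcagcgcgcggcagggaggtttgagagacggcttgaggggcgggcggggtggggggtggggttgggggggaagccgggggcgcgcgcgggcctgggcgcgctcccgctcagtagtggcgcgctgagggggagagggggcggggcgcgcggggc
Spock1: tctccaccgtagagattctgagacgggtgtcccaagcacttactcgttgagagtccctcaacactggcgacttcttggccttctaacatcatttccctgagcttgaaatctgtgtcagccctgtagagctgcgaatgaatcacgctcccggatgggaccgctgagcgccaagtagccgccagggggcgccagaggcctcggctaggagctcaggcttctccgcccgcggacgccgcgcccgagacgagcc
The Sox2 window holds 1 ACAAAG on its own strand, 206 to 201 bases before the start. In the Ugt8a window 1 ATCAAAG lies on the other strand, 228 to 222 bases before the start, and the Spock1 window holds 0 of these motifs. Among 32851 promoter windows of the same length, 16.5% held ACAAAG, 10.7% ACAATG, 3.21% ATCAAAG and 21.6% TGGGAA on either strand. A match describes the letters and shows no binding.

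Papilla signature genes were higher in R3 as a group: of 30 measured, 26 rose and 0 fell, against 7.9% and 10.8% of all genes. Their median difference was 1.73, against -0.01 over all genes. This list and those below were drawn up with earlier results of these arrays known, so their directions are no independent evidence. The papilla list shares members with lists below, among them Rspo3, Bmp4, Hhip, Hey2, Prdm1, Spock1, Cntn1 and Slc1a1. The counts of those lists are therefore not separate from its own. Corin, a serine protease that marks the papilla, read 6.30, 6.03 and 5.45 in R1 and 9.72, 10.14 and 9.98 in R3 with no overlap, 16.2-fold higher (difference 4.02, standard error 0.21, adjusted p = 4.2e-06). Alpl, the alkaline phosphatase used to stain papillae, read 7.72, 6.96 and 6.30 and 10.38, 10.36 and 10.12, 9.79-fold higher. In R1 both markers lay in or above the background guide.

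Hey2, a Notch effector, read 7.18, 7.10 and 7.09 in R1 and 10.41, 10.40 and 10.29 in R3, a difference of 3.24 (standard error 0.11, adjusted p = 1.95e-06). Inhba, the activin A subunit, rose from 9.34 ± 0.15 to 12.50 ± 0.04 (SD, n = 3), 8.9-fold, or 3.11-fold averaged over its probe sets. Vcan, the proteoglycan versican of the papilla matrix, read 11.99, 12.13 and 11.83 in R1 and 13.63, 13.63 and 13.30 in R3, a smaller fold of 2.9 at a high level. Among transcription factors of the list, Prdm1 was 5.75-fold higher, Foxd1 3.07-fold, Alx4 2.88-fold, Tbx18 2.13-fold and Trps1 1.7-fold. Prokr2, a prokineticin receptor, was 3.95-fold higher than in R1 but stood lower in R3 than in R2 (R3 minus R2 -2.16, adjusted p = 2.49e-05). Hhip, which binds hedgehog proteins, lay above R2 instead (11.58 against 9.76, adjusted p = 0.00112).

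The 4 members that did not pass were Sox18, Crabp1, Ncam1 and Heyl. Sox18, a SoxF factor also known from endothelium, stood at 8.12 ± 0.43 in R1 and 8.94 ± 0.45 in R3 (adjusted p = 0.0514), with R2 at 10.70. It passed in 9 of 14 alternatives, among them without R1 replicate 4 (adjusted p = 0.0189) or R3 replicate 5 (0.0141), and with the mouse as a fixed block (0.0432). Crabp1, a retinoic acid binding protein, stood at 10.48 ± 0.27 and 11.30 ± 0.59 (adjusted p = 0.0729). Of 14 alternatives it passed in 4, among them without R3 replicate 5 (0.00965) and with the mouse as a fixed block (0.019). Heyl stood at 9.10 in R1 and 8.85 in R3, and the neural adhesion molecule Ncam1 at 11.05 and 11.29. Ncam1 was called higher with its probe sets averaged (difference 0.48, adjusted p = 0.0486).

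**Figure D3:**
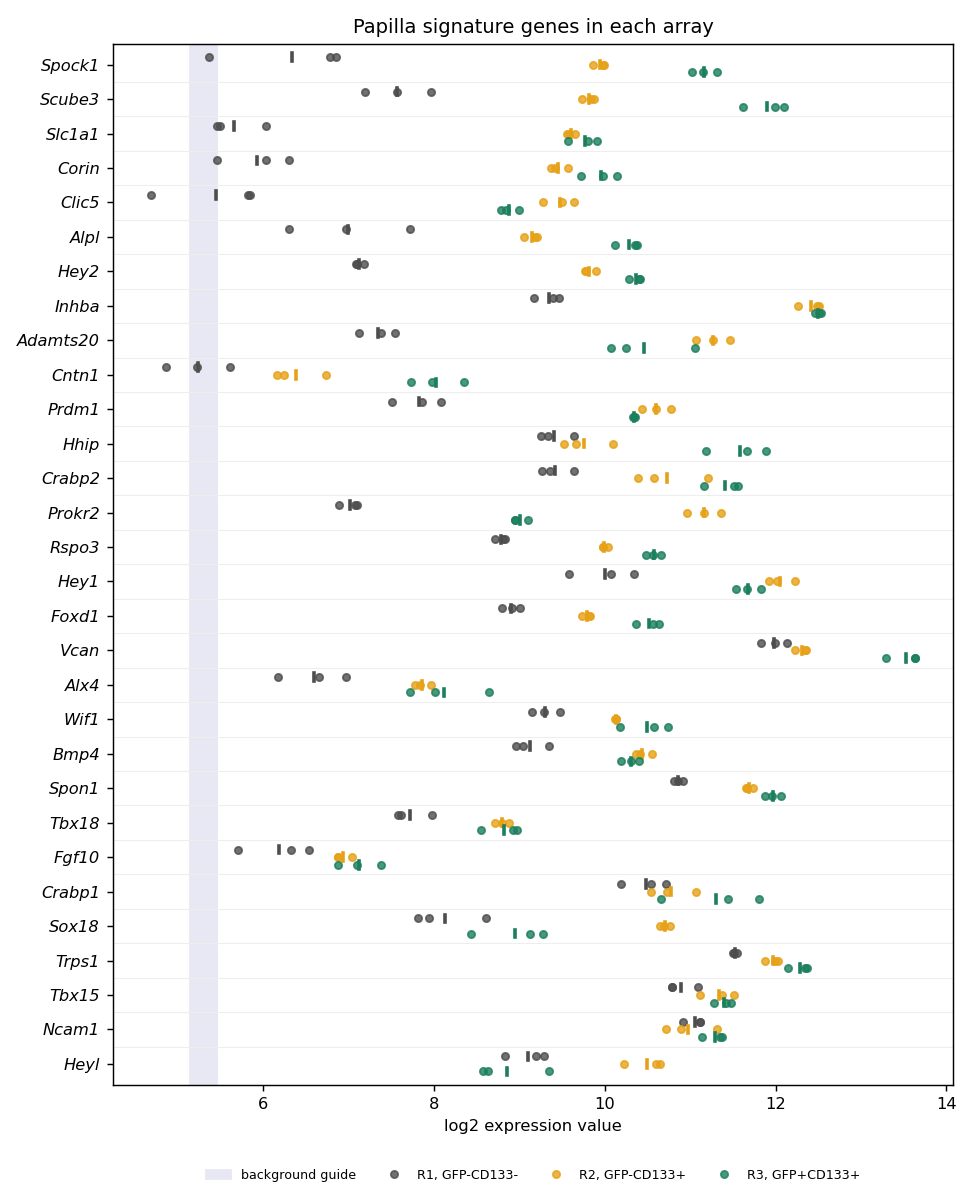
Log2 expression values of the 30 papilla signature genes in each array, ordered by R3 minus R1, with a bar at each group mean and the background guide shaded. Spock1 (4.83) heads the order and Heyl (-0.25) ends it; Prokr2 and Sox18 stand highest in R2.

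Wnt pathway genes moved in both directions. Of 24 measured, 13 rose (54.2%, against 7.9% of all genes) and 6 fell (25%, against 10.8%), with a median difference of 0.97. Among the R-spondins, Rspo1 read 9.53, 9.58 and 9.48 in R1 and 11.70, 11.50 and 11.73 in R3, 4.34-fold higher, and Rspo3 was 3.45-fold higher (adjusted p = 9.18e-06). Rspo4 did not pass (5.57 in R1, 5.16 in R3). The ligand Wnt5a was 3.16-fold higher and Ndp, norrin, a ligand of a Frizzled receptor, 4.11-fold. The nuclear effector Lef1 rose 2.84-fold, whereas the feedback target Axin2 fell, from 11.30, 11.29 and 11.10 in R1 to 10.12, 10.05 and 10.11 in R3 (difference -1.13, adjusted p = 0.000128).

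Secreted Wnt antagonists were split. Sfrp1 read 7.88, 8.21 and 7.10 in R1 and 10.30, 10.56 and 10.76 in R3, 7.02-fold higher, and R2 stood near R1 at 7.98. Frzb was 3.3-fold higher, Wif1 2.28-fold, Notum 3.79-fold and Sostdc1, which also binds BMPs, 3.29-fold. Sfrp2 went the other way, from 12.51, 12.68 and 12.54 to 11.12, 11.07 and 10.82 (difference -1.57, adjusted p = 0.000161). Sfrp4, Dkk1 and Dkk3 were lower too, with differences of -1.35, -0.85 and -0.96 (R3 minus R1, log2). The R-spondin receptor Lgr5 was lower (-1.79) and Lgr4 higher (0.74).

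Of 18 BMP, activin and TGF-beta genes, 10 rose (55.6%, against 7.9% of all genes) and 2 fell (11.1%, near the 10.8% of all genes). The ligand Bmp7 read 7.40, 7.29 and 7.56 in R1 and 9.84, 10.08 and 9.97 in R3, 5.84-fold higher with no overlap. Bmp6 and Bmp4 were 3.1-fold and 2.27-fold higher, and Gdf10 5.58-fold. Bmp2 did not pass (8.51 in R1, 7.89 in R3, adjusted p = 0.0572). It was called lower in 4 alternatives, with the 6 arrays alone (0.0321), quantile normalization again (0.0478), probe sets averaged (0.0479) and genes above the median gene (0.0314). Among antagonists, Grem1 fell from 10.49, 10.21 and 10.45 to 8.66, 8.16 and 8.01, a difference of -2.10 (adjusted p = 5.59e-05). Noggin (Nog) and follistatin (Fst) rose instead, 2.84-fold and 1.89-fold. Chrdl1, a chordin-like antagonist, was the other lower gene, at 6.79 in R1 and 5.33 in R3.

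In the growth factor list 9 of 19 rose (47.4%, against 7.9% of all genes) and 3 fell (15.8%, against 10.8%). Fgf7, keratinocyte growth factor, read 8.51, 8.38 and 7.41 in R1 and 10.81, 10.58 and 10.22 in R3, 5.41-fold higher. Fgf10, its relative, was 1.9-fold higher (adjusted p = 0.0146, and 0.0573 without R3 replicate 4). Pappa2, which frees IGF by cutting its binding proteins, read 8.06, 8.42 and 8.15 and 11.10, 11.39 and 10.96, 7.67-fold higher, while R2 stood at 7.75. Igfbp3, a binding protein, was 2.52-fold higher. The 3 lower genes were the ligands Igf2 and Igf1 and the Kit ligand Kitl: Igf2 fell from 12.90, 12.90 and 12.89 to 11.12, 11.41 and 11.26. Igf1 and Kitl differed by -0.93 and -0.70. The neurotrophin Bdnf was 2.75-fold higher.

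Hedgehog genes moved in both directions, and 2 co-receptors fell. Of 16 measured, 6 rose (37.5%, against 7.9% of all genes) and 3 fell (18.8%, against 10.8%). The count of higher genes was 3 without R1 replicate 2 or R3 replicate 5, and 2 at a difference of at least 2-fold. Cdon, a co-receptor, read 10.65, 10.66 and 10.92 in R1 and 7.40, 7.59 and 8.02 in R3, 8.41-fold lower (difference -3.07, standard error 0.17, adjusted p = 5.39e-06), and R2 lay between at 9.49. Gas1, another ligand-binding co-receptor, fell from 11.03, 11.26 and 11.51 to 8.82, 8.85 and 9.17. In contrast, Hhip read 9.64, 9.33 and 9.26 in R1 and 11.66, 11.89 and 11.18 in R3, 4.49-fold higher. Dhh, a hedgehog ligand that Schwann cells make, was 6.79-fold higher (2.77 averaged), beside the Schwann genes described further on.

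Of 22 Notch genes, 6 rose and 3 fell, with a median difference of 0.05. The shares were 27.3% higher and 13.6% lower, the second near the 10.8% of all genes. Besides Hey2, the effector Hey1 was 3.2-fold higher and the ligand Jag1 2.74-fold, from 10.21 ± 0.25 to 11.66 ± 0.08 (SD, n = 3). Dtx1, a Notch regulator, was 2.76-fold higher (1.63 averaged), from a dim 4.83 in R1. The 3 lower genes, named after their values were seen, were the target Nrarp (-1.54), the ligand Jag2 (-1.08) and the glycosyltransferase Lfng (-0.71). Lfng missed the threshold without R1 replicate 2, 4 or 5 (adjusted p = 0.0515, 0.0681 and 0.0964) or R3 replicate 2 or 4 (0.0814 and 0.106). It also missed with the 6 arrays alone (0.0579), median centring (0.0537) and probe sets averaged (0.0898).

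Among 53 transcription factors of skin mesenchyme, 17 were higher (32.1%, against 7.9% of all genes) and 9 lower (17%, against 10.8%). The list includes Sox2 of the sort. Ebf1 read 9.42, 9.22 and 9.69 in R1 and 11.46, 11.77 and 11.64 in R3, 4.53-fold higher. Meox2, a homeobox factor of mesoderm, fell from 7.54, 7.90 and 7.75 to 4.25, 3.97 and 4.61, 11-fold, to levels under the background guide, while R2 stayed at 7.59. Prdm1, a repressor, read 7.51, 8.08 and 7.86 and 10.34, 10.33 and 10.36. Hox cluster genes were called at close to the share of all genes: 3 of 33 rose and 4 fell, 21.2% called against 18.7% of all genes. With the mouse as a fixed block 5 rose. The count of lower genes was 2 without R1 replicate 2, R1 replicate 4 or R3 replicate 4. Hoxd1 (6.57 in R1, 7.94 in R3) and Hoxa5 (7.45 and 8.29) were higher, and Hoxb4 (8.82 and 8.06) was lower.

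Proteoglycan and matrix enzyme genes changed in both directions, 17 of 46 up (37%, against 7.9% of all genes) and 11 down (23.9%, against 10.8%). At least 2-fold falls were seen in 4 members. Acan, the cartilage proteoglycan aggrecan, stood at 7.83 ± 0.15 in R1 and 10.28 ± 0.22 in R3 (SD, n = 3), 5.46-fold higher. Spock3, a second testican, read 3.42, 3.02 and 3.08 and 6.29, 6.17 and 6.94, 9.79-fold higher (3.21 averaged), and R2 stood with R1 at 3.02, both under the background guide. The gelatinase gene Mmp2 fell from 11.16, 10.93 and 10.89 to 8.97, 8.78 and 9.05, 4.18-fold.

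Of 32 adhesion molecules known from neurons, 10 rose (31.2%, against 7.9% of all genes) and 3 fell (9.4%, near the 10.8% of all genes). The lower count was 5 with probe sets averaged, 6 with probe sets tested singly and 1 among genes above the median gene. Clstn2, calsyntenin, read 6.93, 6.76 and 5.67 in R1 and 9.98, 10.38 and 10.50 in R3, with R2 at 10.19. Lrrn1, a leucine-rich repeat protein, read 8.59, 8.59 and 8.64 and 10.84, 10.84 and 10.78, 4.63-fold higher, or 1.81-fold averaged over its probe sets. Cntn1, contactin, was 6.91-fold higher (4 averaged). Of 37 axon guidance genes 12 rose (32.4%, against 7.9% of all genes) and 10 fell (27%, against 10.8%). At least 2-fold, 7 of them rose and 3 fell. The netrin receptor Unc5c read 6.74, 5.85 and 5.58 and 9.50, 9.67 and 9.57, 11.5-fold higher, and the ephrin receptor Epha7 was 3.94-fold higher (7.36 averaged). The ligand netrin (Ntn1) was lower, from 11.24 ± 0.14 to 10.34 ± 0.10 (SD, n = 3), and so was Sema7a (-1.22). Among 33 channels and transporters 11 rose (33.3%, against 7.9% of all genes) and 4 fell (12.1%, near the 10.8% of all genes). The potassium channel Kcnj3 read 3.61, 4.28 and 4.28 in R1 and 6.91, 7.49 and 8.11 in R3, 10.9-fold higher (6.36 averaged). Its R1 arrays lay under the background guide. The intracellular chloride channel Clic5 was 10.7-fold higher (5.04 averaged). Among genes above the median gene, 6 of this list were called higher.

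The fibroblast list fell in R3. Of 30 measured, 18 fell (60%, against 10.8% of all genes) and 0 rose, with a median difference of -0.71. Cd34 read 10.37, 10.70 and 10.43 in R1 and 7.16, 7.51 and 7.81 in R3, 8.04-fold lower; it marks dermal fibroblasts and endothelium. The small proteoglycan Lum read 12.72, 12.89 and 12.72 and 10.02, 10.38 and 10.44, 5.67-fold lower, and Dcn was 4.26-fold lower. Dpp4, a marker of upper dermal fibroblasts, was 7.2-fold lower (3.31 averaged), Dlk1, a marker of lower dermis, 4.68-fold (3.04 averaged), and fibronectin (Fn1) 2.74-fold. The major fibrillar collagens did not pass: Col1a1 stood at 13.72 in R1 and 13.43 in R3, Col1a2 at 14.10 and 13.79, and Col3a1 at 13.88 and 13.59. Pdgfra, the receptor shared by skin mesenchyme, stood at 10.46 ± 0.11 and 10.65 ± 0.03 (SD, n = 3, adjusted p = 0.319). Averaged over all their probe sets, the 3 collagens were called lower (adjusted p = 0.00889, 0.027 and 0.00308) and Pdgfra higher (0.0179), 1 of 2 members then higher. With limma's trend and robust variance the collagens were called lower on the same probe sets (0.0155, 0.00123 and 0.00679), and so was Col1a2 among genes above the median gene (0.0483).

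Cell cycle genes were lower as well, 19 of 31 (61.3%, against 10.8% of all genes), with 0 higher and a median of -0.83. The replication licensing gene Mcm3 read 10.09, 9.61 and 9.77 in R1 and 8.53, 8.23 and 8.40 in R3, 2.71-fold lower with no overlap. Mcm2 was 2.44-fold lower, the anaphase activator Cdc20 2.47-fold and the checkpoint kinase gene Bub1b 2.39-fold. At least 2-fold falls were seen in 8 members. Epithelial and immune markers fell in the same comparison, and their part in this shift was not tested.

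Schwann and glial genes were higher in R3, 14 of 20 (70%, against 7.9% of all genes) with 0 lower and a median of 2.48. The list was chosen with earlier results known and holds Ugt8a, Mbp and Mal from among the largest rises. The summed linear level of its genes ranged from 6396 to 7554 in R1 and from 18909 to 19914 in R3. Chl1, a neural adhesion gene, read 7.17, 6.76 and 7.38 in R1 and 10.49, 10.73 and 10.57 in R3, 11.3-fold higher (5.5 averaged). Cdh19, a cadherin of Schwann cell precursors, read 3.94, 3.99 and 3.82 and 6.52, 7.10 and 7.57, and Nkain2 3.61, 3.54 and 4.04 and 6.47, 6.86 and 7.43. The R1 arrays of Cdh19 and Nkain2 lay under the background guide. S100b was 5.79-fold higher and Fabp7 5.38-fold.

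Sox10, the factor that defines the neural crest glial lineage, stood at 6.79 ± 0.11 in R1 and 7.26 ± 0.21 in R3 (SD, n = 3) without overlap but missed the threshold (adjusted p = 0.051). Averaged over its 3 probe sets, Sox10 was called higher (adjusted p = 0.00118). Erbb3, the neuregulin receptor of Schwann cells, stood at 9.55 ± 0.25 and 10.08 ± 0.30 (SD, n = 3, adjusted p = 0.22). Gfap stayed under the background guide in both groups (3.93 and 3.88). Among genes above the median gene 9 members of the list were called higher. The part of these genes in the rise of papilla and adhesion genes was not tested, and Chl1 is in both the glial and the adhesion list.

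Epithelial genes were lower in R3. Of 25 keratinocyte genes 21 fell (84%, against 10.8% of all genes) and 1 rose (4%, against 7.9%), with a median of -2.57. Their summed linear level was 32083 to 42634 in R1 and 5584 to 9138 in R3. Krt5, a basal keratin, read 13.27, 12.60 and 12.34 in R1 and 9.99, 9.39 and 9.76 in R3. Its partner Krt14 was 9.66-fold lower (4.97 averaged) and Krt79 6.31-fold. The single higher gene was the integrin Itga6, also known from Schwann cells and endothelium (9.39 in R1, 10.59 in R3). Of 19 genes of hair matrix and inner root sheath 13 fell (68.4%, against 10.8% of all genes). The root sheath keratin Krt27 read 11.06, 10.51 and 10.24 in R1 and 6.67, 5.83 and 5.00 in R3, 27.3-fold lower. Krt25, another root sheath keratin, was 21.8-fold lower (33.1 without R3 replicate 2). Among genes above the median gene 3 members of this list were called lower. In R2, Krt5 stood at 9.36 and Krt14 at 7.21.

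Mast cell genes fell the most of the cell type lists measured, by their median of -3.29. Of 12 measured, 11 were lower (91.7%, against 10.8% of all genes). The summed level was 14387 to 20747 in R1 and 1108 to 1892 in R3. The chymase gene Cma1 read 11.97, 12.35 and 11.95 in R1 and 7.12, 7.96 and 8.43 in R3, 19.1-fold lower, and Mcpt4, another chymase, 10.51, 11.30 and 11.18 and 6.34, 6.32 and 7.16. The tryptase gene Tpsb2 was 10.7-fold lower. Fcer1a, a subunit of the IgE receptor, was under the background guide in both groups (2.99 and 3.09). Of the other genes with the largest falls, Slc6a4, the serotonin transporter, read 10.20, 10.79 and 10.30 in R1 and 6.07, 6.31 and 6.52 in R3, and the receptor gene Mrgprb1 was 17.5-fold lower.

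Macrophage, Langerhans and lymphocyte genes were lower in 11 of 23 cases (47.8%, against 10.8% of all genes) and higher in 0. Among genes above the median gene 7 were lower. Cd69, an activation antigen of lymphocytes, read 7.53, 8.36 and 7.75 and 3.21, 3.54 and 2.51, 27.7-fold lower. Its R3 arrays lay under the background guide, so this fold is uncertain. The MHC class II chaperone Cd74 was 8.24-fold lower. H2-Ea, a class II chain, fell 16.7-fold, but 3.22-fold averaged over its probe sets and 26.9-fold without R1 replicate 5. The leukocyte adaptor Sla fell 16.6-fold (4.44 averaged) and Rgs1, a regulator of G protein signalling, 15-fold. The macrophage markers Csf1r, Mrc1 and C1qb did not pass. Csf1r stood at 9.99 ± 0.43 in R1 and 9.97 ± 0.56 in R3 (adjusted p = 0.984), Mrc1 at 8.19 ± 0.22 and 8.83 ± 0.57 (0.365) and C1qb at 7.82 ± 0.66 and 9.09 ± 1.02 (0.137; SD, n = 3). C1qb was highest in R3 of mouse 2, at 10.19.

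C1qtnf3, a secreted protein of the complement C1q and TNF family, read 10.22, 10.15 and 10.65 in R1 and 5.33, 4.51 and 6.37 in R3, 30.6-fold lower (difference -4.94, standard error 0.43, adjusted p = 6.75e-05). Its R3 arrays spread widely around the background guide. The growth factor receptor Fgfr4 stood at 9.02 ± 0.14 and 4.61 ± 1.10 (SD, n = 3), 21.3-fold lower, with R2 between at 7.41. Its R3 mean lay under the background guide. The fold was 4.21 averaged over its 5 probe sets and 13.7 without R3 replicate 4.

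Endothelial genes were lower in 13 of 23 cases (56.5%, against 10.8% of all genes) and higher in 2 (8.7%, near the 7.9% of all genes). Their summed level was 3832 to 4052 in R1 and 2106 to 2562 in R3. Adgrf5, an adhesion receptor of endothelium, stood at 7.54 ± 0.04 in R1 and 5.43 ± 0.04 in R3 (SD, n = 3), 4.33-fold lower. Its R3 mean lay in the range of the background guide. Mmrn1 was 6.45-fold lower (2.45 averaged) and Pecam1 2.09-fold (adjusted p = 0.0209). Pecam1 missed the threshold without R1 replicate 2 (0.0606), R1 replicate 4 (0.0524), R1 replicate 5 (0.0546) or R3 replicate 4 (0.0604). It also missed with the 6 arrays alone (adjusted p = 0.0528). The VEGF receptor Flt1 moved against the list, 3.44-fold higher (2.18 averaged), and Kdr stood at 7.08 ± 0.09 and 7.48 ± 0.10 (SD, n = 3, adjusted p = 0.0366). Kdr was called in 7 of 14 alternatives. Without R1 replicate 2, R1 replicate 4, R3 replicate 4 or R3 replicate 5, 1 gene of the list was higher. The same held with the mouse as a fixed block, the 6 arrays alone, and trend and robust variance. Adgrf5 and Pecam1 stood highest in R2, at 9.50 and 9.52 (R3 minus R2 adjusted p = 5.33e-07 and 0.000277).

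Of 15 pericyte and smooth muscle genes, 3 rose (20%, against 7.9% of all genes), 6 fell (40%, against 10.8%) and 6 did not pass. Kcnj8, a channel subunit of pericytes, read 10.14, 9.89 and 10.00 in R1 and 6.64, 6.45 and 6.56 in R3, 11-fold lower, and its partner Abcc9 and the pericyte gene Rgs5 were 5.88-fold and 5.38-fold lower (8.07 averaged for Rgs5). Acta2, smooth muscle actin, which papilla and dermal sheath cells can also express, read 10.85, 11.01 and 10.40 and 11.92, 11.89 and 12.13, 2.34-fold higher (1.5 averaged), and Actg2 and Tagln were 2.99-fold and 2.03-fold higher. The smooth muscle myosin gene Myh11 was lower, 3.27-fold (1.79 averaged). Skeletal muscle genes were lower in 8 of 16 cases (50%, against 10.8% of all genes) and higher in 1 (6.2%, near the 7.9% of all genes). Their summed linear level did not fall, at 1512 to 2028 in R1 and 1998 to 2468 in R3. The lower genes included the myogenic factor Myog (7.41 in R1, 4.77 in R3), whose R3 mean lay under the background guide. In the fit of genes above the median gene, which leaves dimmer members untested, 0 members were called lower by limma. In the full fit 3 fell at least 2-fold. Tnnt1, a slow muscle troponin, went the other way, from 7.38, 7.11 and 6.44 to 10.15, 10.57 and 9.98, 9.55-fold higher.

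Of 11 fat cell genes 5 fell (45.5%, against 10.8% of all genes) and 1 rose (9.1%, near the 7.9% of all genes). Lpl, lipoprotein lipase, read 12.22, 11.75 and 12.10 in R1 and 9.19, 9.73 and 9.87 in R3, 5.37-fold lower, and the adipogenic factor Pparg was 3.86-fold lower; the higher gene was the desaturase Scd1 (1.96-fold). Of 13 melanocyte genes 7 fell (53.8%, against 10.8% of all genes) and 1 rose (7.7%, near the 7.9% of all genes). Their summed linear level overlapped between the groups, at 3227 to 4122 in R1 and 3337 to 3957 in R3. Kit is in both the melanocyte and the mast cell list. Among genes above the median gene 4 fell. The lower genes included the pigment genes Dct (6.77-fold) and Pmel (4.07-fold). Ednrb, an endothelin receptor of melanoblasts and also of papilla cells, rose, from 9.53, 9.73 and 9.60 to 11.29, 11.28 and 11.33. Of 4 measured red cell genes 0 were called by limma, and 0 had an unadjusted p under 0.05. The list held 8 genes, and the beta-globin genes were among those not measured. The measured ones averaged 5.10 in R1 and in R3, under the background guide, so little can be read from them.

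Immediate early and heat shock genes are known to respond to cell dissociation. Of 21 measured, 4 rose and 2 fell, with a median of 0.23. That is 19% higher and 9.5% lower, against 7.9% and 10.8% of all genes. Nr4a1 read 10.40, 10.38 and 10.64 in R1 and 11.34, 11.06 and 11.39 in R3, and Fosb 11.89, 12.15 and 11.84 and 12.61, 12.53 and 12.47. The counts were unstable: 8 rose with trend and robust variance, 0 rose and 0 fell at least 2-fold, and 2 rose with the 6 arrays alone. Leaving out single arrays, 2 rose when R1 replicate 4 or R3 replicate 4 or 5 was left out. The lower genes were 0 without R1 replicate 2 or R3 replicate 4, and 1 without R1 replicate 4 or 5 or R3 replicate 5.

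**Figure D4:**
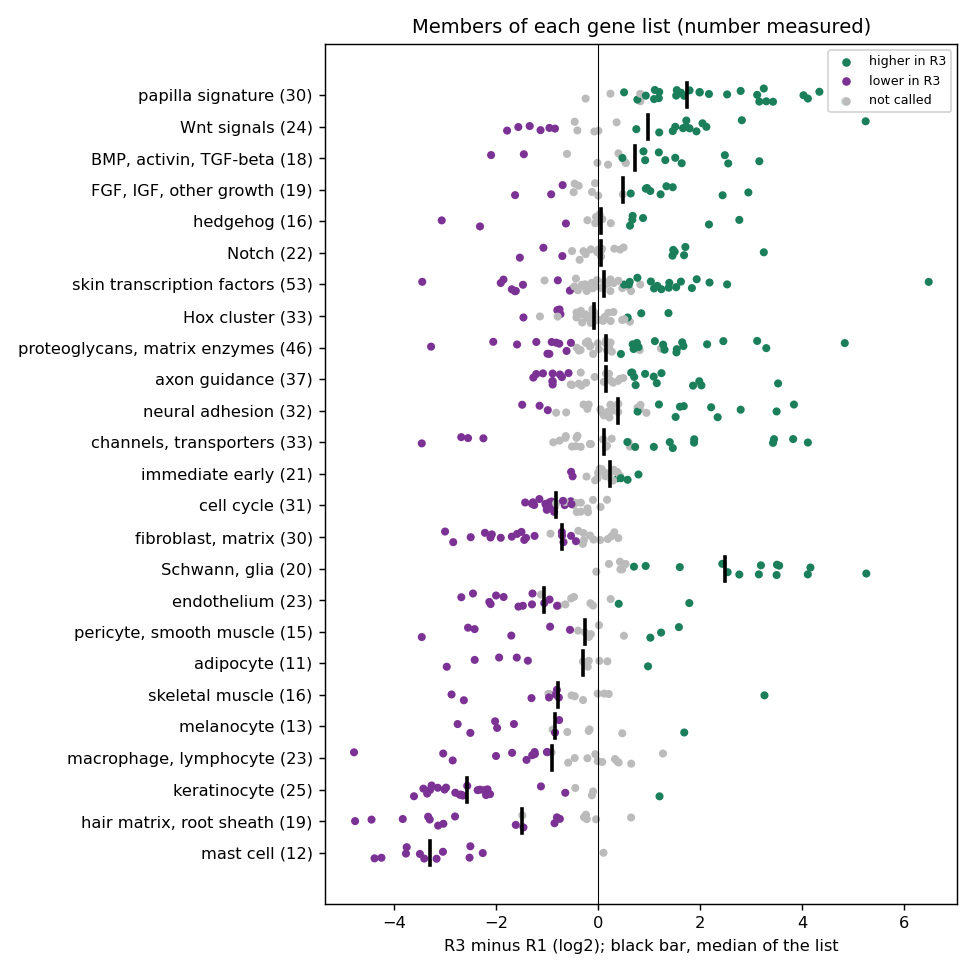
R3 minus R1 (log2) of the measured members of 25 gene lists, 1 point a gene, green where called higher, purple where called lower and grey where not called, with a black bar at the median. Medians run from -3.29 for mast cells to 2.48 for Schwann and glial genes.

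The mean log2 level of a list in each array placed the groups side by side. Papilla signature genes averaged 8.33 to 8.40 in R1 arrays, 10.15 to 10.22 in R2 and 10.34 to 10.47 in R3. Fibroblast genes fell in the order R1 (11.39 to 11.47), R2 (10.77 to 10.85) and R3 (10.35 to 10.49). Schwann genes were lowest in R2 (5.68 to 5.89) and highest in R3 (8.68 to 8.88), with R1 between (6.34 to 6.79). These averages describe the arrays and carry no test. Where a list had 0 called in a direction in limma's fit, the members at an unadjusted p under 0.05 were 0 lower for the papilla signature and for Schwann genes, 0 higher for fibroblast, mast cell and cell cycle genes, and 1 higher for the macrophage and lymphocyte list and for hair genes.

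**Figure D5:**
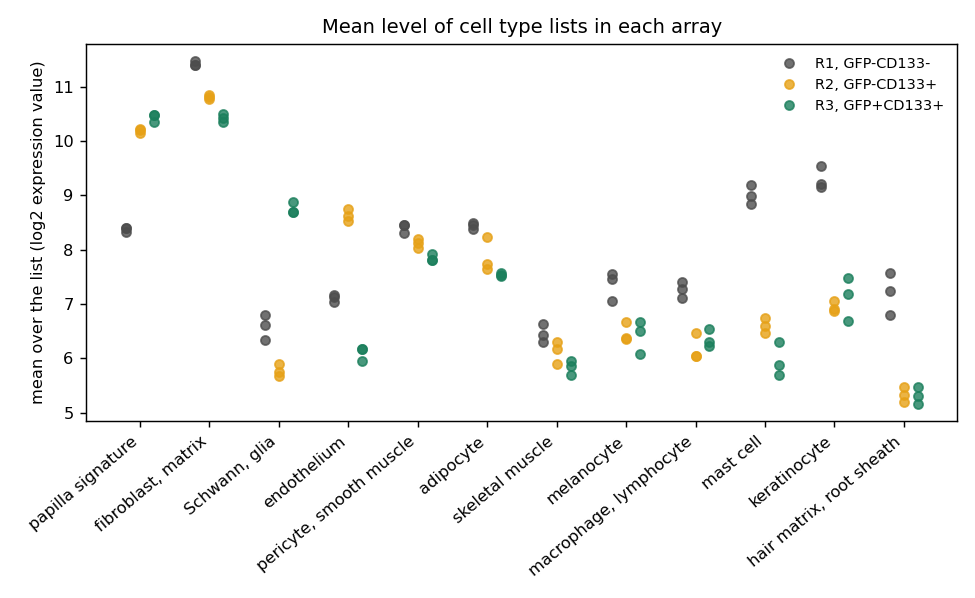
Mean log2 expression value over the measured genes of 12 cell type lists, 1 point an array, for R1, R2 and R3. R3 lies highest for Schwann genes (8.68 to 8.88), and R1 highest for mast cell (8.83 to 9.18) and keratinocyte genes (9.15 to 9.54).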

How the data were processed

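RNA of 3 sorted populations from 3 mice was measured on 9 Affymetrix arrays. The deposited log2 expression values come from RMA (background correction, quantile normalization and probe set summary), per the submitters' processing notes; for RMA no version is named there. The precision is limited by 3 arrays a gate. Of 45101 probe sets, 34945 had 1 gene symbol in the platform annotation, 932 several, 9211 none and 64 were controls, a class that can also carry a symbol. Each of 18193 symbols was read from its brightest probe set by the mean of the 9 arrays; 9010 symbols had several. The test was limma's moderated fit (version 3.58.1, R 4.3.3; lmFit, contrasts.fit, eBayes) over all 9 arrays with the gate as the only term, adjusted by Benjamini-Hochberg, and the code was tested on simulated data. The sorted sample of 1 mouse is the replicate. Arrays with 1 number share a mouse, per the labels, and so are paired. Between R1 and R3 arrays, deviations from the gate means correlated at 0.0632 to 0.151 within a mouse and at -0.157 to 0.00425 between mice. Deviations within a gate cancel out, so these ranges are not independent of each other. Named genes were drawn from the gate genes, the 12 largest rises and falls, up to 4 members of lowest p in each list, and members of papilla and cell type lists. Not every gene of this rule is described. The largest rises and falls skipped clone-type, predicted and numbered symbols, and their sign had to be the same in all 3 mice. The genes and lists were chosen with earlier results of these data known. Alternatives changed the block, the arrays, the scaling, the probe set rule, the dim-gene filter and the variance model.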

Additional observations from a re-analysis of the deposited data

Results flagged for a closer look

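Probe sets with no gene symbol were left out of the comparison by gene. Fitted apart with limma, 303 of 9160 were called higher and 167 lower in R3 than in R1, or 5.13% in all, against 18.7% of named genes. They are given as a signal in data that no gene-level result uses.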

How the results depend on the processing

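Against 3406 called genes (1438 higher, 1968 lower), leaving out 1 array in turn gave 2519 to 3009 (1097 to 1225 higher, 1422 to 1792 lower). Requiring a 2-fold difference left 1476 (605 higher, 871 lower). With the mouse as a block, by the pairing in the labels, 3494 genes were called as a fixed term and 3618 as a random one; the fixed term changed the calls of Sox18, Crabp1 and Kdr (adjusted p = 0.0432, 0.019 and 0.0505 in limma), and the random one those of Sox18 and Sox10 (0.0434 and 0.0442), among the named genes. The 6 arrays alone gave 2893. Median centring gave 3409, of which 53.9% were higher against 42.2%. Small differences near the background guide are limited by dim signal. Differences of Csf1r and Gfap, uncalled and near 0, changed sign: Csf1r was 0.08125 with median centring, 0.1449 averaged over probe sets and -0.3051 to 0.2489 without single arrays, and Gfap 0.05456 with centring and -0.1434 to 0.09629 without single arrays.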
